A study of Mus musculus with 2 samples.

Results

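The 28 genes described here are markers of nerve tissue read in mouse ureters: 15 pan-neuronal, 9 sympathoadrenal and 4 glial genes. They were chosen by name from a list of such markers, as the array probes, controls aside, whose gene name is on the list. That list was chosen with earlier results of these data known. Shares of it set beside those of all genes are thus descriptions and not tests. These are 35 of 39429 probes on the array, and all 28 genes entered the tests, among 20104 genes in all. Total RNA of mechanically dissected ureters, 150 ng per sample, was labelled and hybridised to 2 two-colour Agilent arrays, which pair a knockout with a control sample in opposite dyes. All embryos were of the NMRI strain at E14.5. The control samples carried the genotype Smad4(fl/?), in which the second allele is not specified. The knockout samples, called Smad4cKO (UE), carried Pax2-cre/+;Smad4(fl/fl) in the series title and Pax-cre/+;Smad4(fl/fl) in the sample labels. A floxed Smad4 allele was thus common to all 4 samples, and no sample with Cre and an intact Smad4 was analysed here. Pax2 is expressed in the epithelium of the nephric duct and in other tissues, and recombination was not measured. On replicate 1, labelled female, the knockout sample was in Cy3 and the control in Cy5. On replicate 2, labelled male, the knockout sample was in Cy5 and the control in Cy3. The sources used here do not state how many embryos or litters went into a sample. The p-values thus measure the spread between these arrays, which differ in labelled sex and in dye orientation. Part of that spread may be technical.

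Neurons and glia of the urinary tract descend from neural crest cells, which migrate ventrally and settle as autonomic ganglia and as Schwann cell precursors along nerves. Sympathetic neurons and chromaffin cells share a programme in which the transcription factors PHOX2A, HAND2 and ISL1 act upstream of the enzymes that make noradrenaline from tyrosine. Nerve fibres reach the ureter from pelvic and other ganglia, and ganglia and paraganglia lie close to it, so a dissected ureter can carry varying amounts of nerve. In total RNA of a whole organ, fewer cells of a type and less RNA per cell cannot be told apart.

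Markers of ureter tissue were read in all samples. Each of 10 genes of the ureteric epithelium and each of 10 genes of its mesenchyme and muscle was well above background in all 4 samples. The 28 nerve genes were too, as were 19582 of the 20104 genes tested, so these counts do not set the lists apart. Between 66.5% and 69.1% of probes were well above background per channel, no spot was saturated, and both arrays lay on 1 slide. Smad4, the targeted gene, read -0.58 on replicate 1 and -0.08 on replicate 2 as log2 knockout over control, and it did not pass the test. Values are log2 spot intensities after background correction and loess normalisation, and differences are log2 ratios. The authors' deposited table runs the other way by the dyes in the labels. Its signed log2 correlated with Cy5 over Cy3 at 0.822 on replicate 1 and at -0.739 on replicate 2, which is control over knockout on both, whereas its titles name the knockout first. Directions by genotype given here follow the dyes in the labels and would turn if those were exchanged. Directions by dye would not.

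Most of the nerve genes differed in the same direction on both arrays by dye, and so few did by genotype. The ratio by genotype is that by dye with the sign of replicate 1 turned. Counts of direction by genotype thus restate those by dye and are not a second result. In the channel that held Cy5, 24 of the 28 genes were brighter on both arrays (13 of 15 pan-neuronal, 8 of 9 sympathoadrenal and 3 of 4 glial), where 27.1% of all genes tested were. For Snap25 and Foxd3, counted among the 24, the ratio on replicate 2 was close to 0. For Th, Chga and Fabp7, also among the 24, the ratio on replicate 1 was only 0.02, 0.03 and 0.03. Brighter in Cy3 on both arrays were 2 of 28, Dcx and Syt1, against 26.5% of all genes. By genotype, 2 of 28 genes were higher in labelled knockout on both arrays, Isl1 and Ednrb, where 21.7% of all genes were. None of the 28 was higher in labelled control on both, against 24.6% of all genes. For 24 genes the control sample was higher on replicate 1 and the knockout sample on replicate 2. Since Cy5 held the control of the female pair and the knockout of the male pair, dye, a genotype difference that turns with sex, and the nerve content of single samples cannot be told apart.

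**Figure D1:**
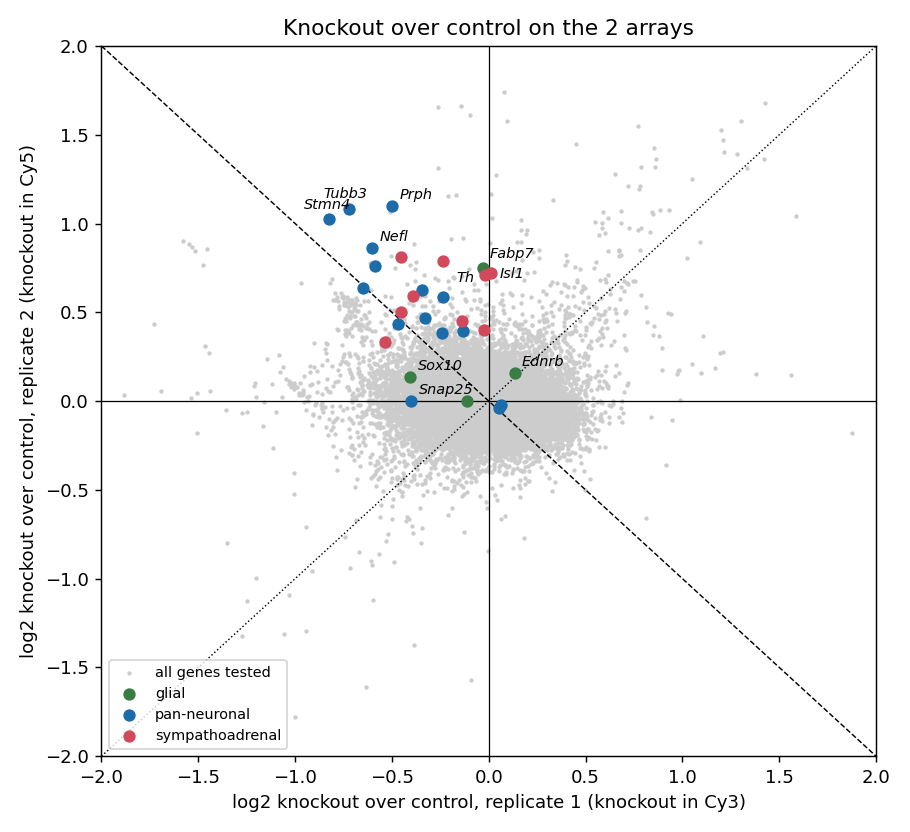
Log2 knockout over control on replicate 1 (horizontal) against replicate 2 (vertical), for all 20104 genes in grey and for the 28 nerve genes in colour by class. The dotted line marks equal values on both arrays and the dashed line opposite values; 4 grey points lie outside the axes. Most coloured points lie in the upper left, near the dashed line, with the knockout below control on replicate 1 and above it on replicate 2.

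None of the 28 genes passed either test. By genotype, limma with Benjamini-Hochberg adjustment over all genes called 0 of the 28, where 66 of 20104 genes (0.328%) passed. This test has no term for dye, so a gap by dye widens the spread of the ratios by genotype. Of the 66 genes, 46 (0.229%) were up in the knockout samples and 20 (0.0995%) in the controls. At an unadjusted p under 0.05 the count was 1 of 28 (Isl1), where 914 of all genes (4.55%) reached it. By dye, limma called 0 of 28 and 0 of all genes (0%). At an unadjusted p under 0.05, however, 17 of the 28 were brighter in Cy5 (11 pan-neuronal, 6 sympathoadrenal and 0 glial), where 821 genes (4.08%) were, and 5.48% of all genes reached that p in either direction. By size alone, 5 of the 28 were at least 1.5-fold brighter in Cy5 on both arrays (Stmn4, Tubb3, Nefl, Elavl4 and Ina), out of 22 such genes in all (0.109%). None was so in Cy3, where 1 gene was (0.00497%). None of the 28 reached that size by genotype in the same direction on both arrays, where 0.264% of all genes did toward knockout and 0.104% toward control.

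The order of the 4 samples was similar across the genes. Both Cy5 samples lay above both Cy3 samples for 22 of the 28 genes (12 pan-neuronal, 8 sympathoadrenal and 2 glial), where 18.8% of all genes showed this order. For Th, Chga and Fabp7, counted among the 22, the ratio by dye on replicate 1 was only 0.02, 0.03 and 0.03. The reverse order was seen for 0 of the 28, against 18.7% of all genes. By genotype, both knockout samples lay above both controls for 2 genes (Isl1 and Ednrb; 13.9% of all genes), and both controls above both knockouts for 0 (15.3% of all genes). The knockout sample of replicate 2, the male knockout, was the highest of the 4 for 21 of the 28 genes, among them all 9 sympathoadrenal genes, where it was the highest for 23.5% of all genes. The lowest sample was the control of replicate 2 for 15 genes and the knockout of replicate 1 for 11.

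**Figure D2:**
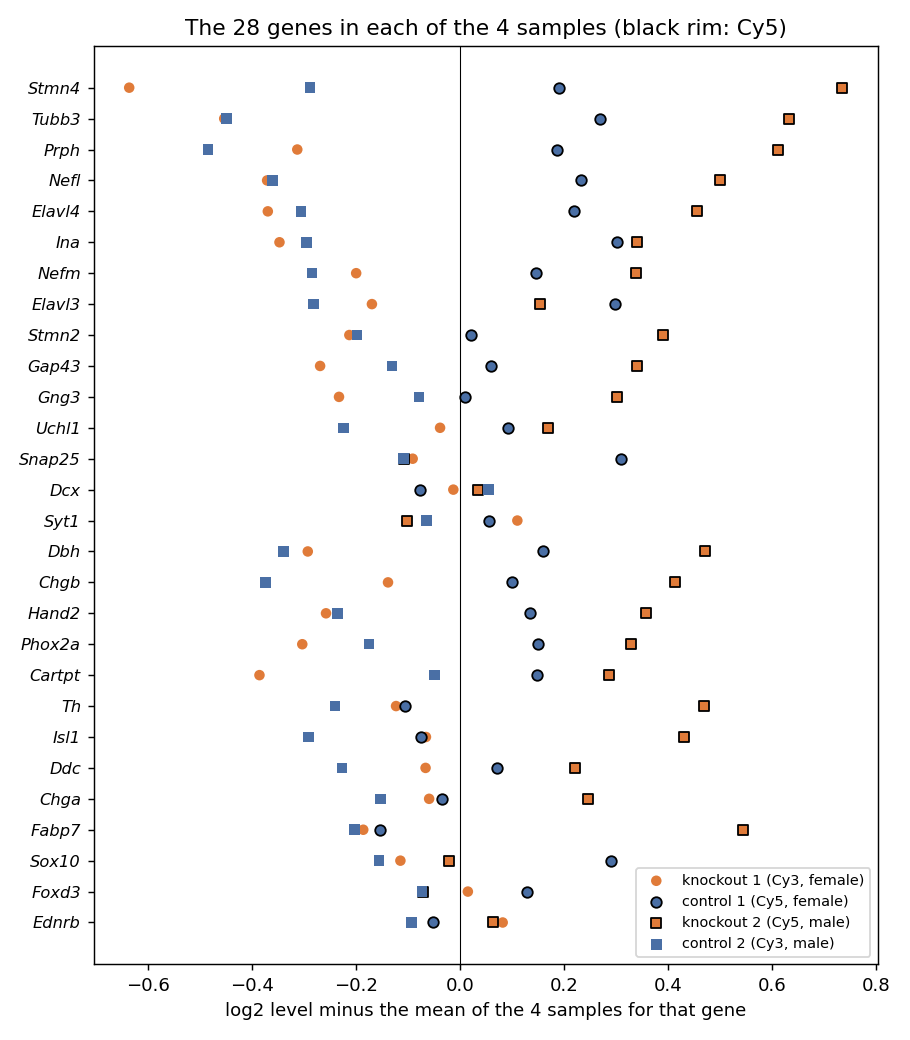
Log2 intensity of each of the 28 genes in each of the 4 samples, as the difference from that gene's mean over the samples, ordered by class; points with a black rim are Cy5 channels. For 22 genes both rimmed points lie above both others.

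Class by class, the median log2 ratio of Cy5 over Cy3 was 0.40 on replicate 1 and 0.59 on replicate 2 for the pan-neuronal genes. For the sympathoadrenal genes it was 0.24 and 0.59, and for the glial genes 0.07 and 0.15. Over all 28 it was 0.34 and 0.55, beside 0.01 and -0.00 over all genes tested. The mean of both arrays had a median of 0.45 in the pan-neuronal, 0.43 in the sympathoadrenal and 0.16 in the glial class. Over all 28 the median was 0.41, a value that 1.64% of all genes exceeded. The same genes had median ratios of knockout over control of 0.09, 0.18 and 0.05 by class and of 0.12 over all 28, against -0.00 over all genes. These medians describe lists chosen with results known and carry no test.

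**Figure D3:**
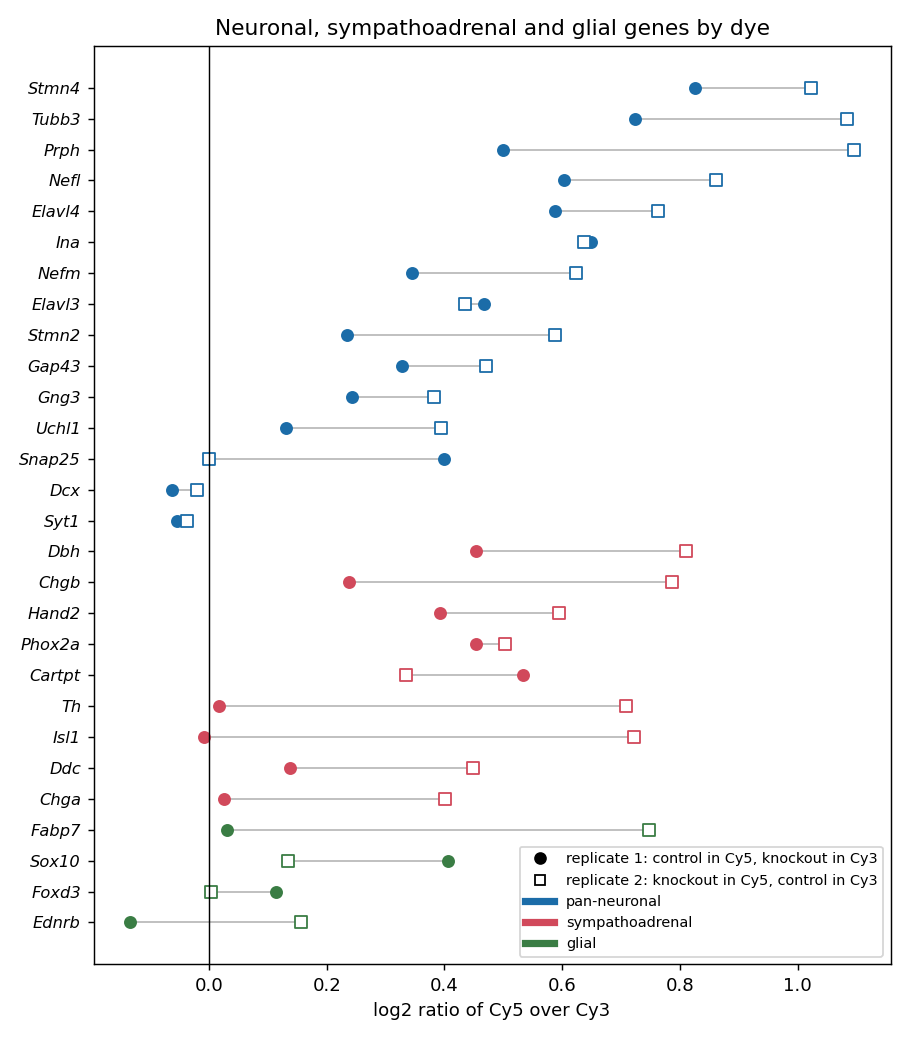
Log2 Cy5 over Cy3 of each of the 28 genes on replicate 1 (knockout in Cy3) and replicate 2 (knockout in Cy5), ordered by class. Values above 0 are brighter in Cy5; Stmn4, Tubb3 and Prph lie farthest to that side, and Dcx and Syt1 lie just below 0.

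Of the pan-neuronal genes, those of microtubules and intermediate filaments are described first. Stmn4, a stathmin that regulates microtubules, had the widest gap of the 28. It read 10.86 in the control of replicate 1 and 11.40 in the knockout of replicate 2, both in Cy5. In Cy3 it read 10.03 in the knockout of replicate 1 and 10.38 in the control of replicate 2. The samples thus fell apart by dye, with no overlap, and each genotype had 1 high and 1 low sample. The ratio of Cy5 over Cy3 was 0.92 ± 0.14 (SD, n = 2 arrays; limma adjusted p = 0.231), and knockout over control was 0.10 ± 1.31 (limma adjusted p = 1.00). A second Stmn4 probe, which shares 44 bases with the first, read 0.76 and 0.95 by dye.

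Tubb3, the neuronal class of beta-tubulin, read 10.15 and 10.51 in the Cy5 samples (control 1, knockout 2) and 9.42 and 9.43 in the Cy3 samples (knockout 1, control 2). The Cy3 samples were nearly equal although they differ in genotype, and the Cy5 samples stood above them. By dye the ratio was 0.90 ± 0.25 (SD, n = 2 arrays; limma adjusted p = 0.231), and by genotype 0.18 ± 1.28 (limma adjusted p = 1.00). Prph encodes peripherin, the intermediate filament typical of peripheral neurons. It read 9.46 and 9.89 in Cy5 and 8.96 and 8.79 in Cy3, in the same order of samples. Its knockout sample of replicate 2 stood highest, and its ratio of Cy5 over Cy3 was 0.50 on replicate 1 and 1.10 on replicate 2. The larger value on replicate 2 left a mean by genotype of 0.30 ± 1.13, with the sign turning between the arrays.

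The neurofilament genes followed the same order. Nefl, the light neurofilament chain, read 11.29 and 11.56 in Cy5 against 10.687 and 10.697 in Cy3, a ratio of 0.73 ± 0.18 (SD, n = 2 arrays). Nefm, the medium chain, read 10.09 and 10.28 against 9.75 and 9.66, a ratio of 0.48 ± 0.20. Ina, alpha-internexin, read 9.43 and 9.47 against 8.78 and 8.83, and its ratio of 0.64 was nearly the same on both arrays (SD 0.0092). Knockout over control thus had opposite signs on the arrays, at -0.65 and 0.64 for Ina and -0.35 and 0.62 for Nefm. A second Ina probe had smaller ratios by dye in the same direction, 0.32 and 0.18.

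The probes of Nefm and Prph are shown because both genes are used to stain axons and their 60 bases are what was read. No base is singled out by capitals. The Nefm probe lies on mm9 at chr14:68738193-68738252 on the minus strand and the Prph probe at chr15:98889042-98889101 on the plus strand, as the array design gives them.
Nefm: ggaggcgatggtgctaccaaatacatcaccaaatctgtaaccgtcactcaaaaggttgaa
Prph: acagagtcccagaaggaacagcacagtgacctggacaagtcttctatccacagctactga

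Genes of growing axons and of neuronal RNA binding showed the gap on both arrays too. Gap43, a protein of growth cones, read 12.91 and 13.19 in Cy5 and 12.59 and 12.72 in Cy3. Stmn2, another stathmin, read 12.04 and 12.41 against 11.81 and 11.82. Their ratios by dye were 0.40 ± 0.10 and 0.41 ± 0.25 (SD, n = 2 arrays). In both genes the Cy5 samples lay above the Cy3 samples. Elavl4 encodes HuD, a neuronal RNA-binding protein, and read 9.69 and 9.92 against 9.10 and 9.16. Elavl3, its relative HuC, read 9.24 and 9.10 against 8.78 and 8.66, and is the only one of these 4 whose highest sample was the control of replicate 1. Their ratios by dye were 0.68 ± 0.12 and 0.45 ± 0.02, and a second Elavl4 probe read 0.45 on each array.

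Uchl1 and Gng3 had gaps at the lower end of this group. Uchl1, a deubiquitinating enzyme abundant in neurons and known as PGP9.5, read 10.53 and 10.61 in Cy5 and 10.40 and 10.21 in Cy3. Gng3, a neuronal G protein gamma subunit, read 9.60 and 9.89 against 9.36 and 9.51. The ratios by dye were 0.26 ± 0.19 for Uchl1 and 0.31 ± 0.10 for Gng3, and in both genes the Cy5 samples stood above the Cy3 samples. The Uchl1 probe is shown because Uchl1 is a usual marker of nerve fibres in the ureter wall and because its 60 bases span 1092 bases of the genome (mm9, chr5:67073886-67074977, plus strand), so that it crosses an intron and reads spliced RNA. No base is singled out.
Uchl1: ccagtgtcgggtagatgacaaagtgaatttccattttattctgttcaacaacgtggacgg

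Snap25, Dcx and Syt1 did not follow the order by dye. Snap25, a membrane fusion protein of synapses, read 14.94 and 14.54 on replicate 1 (control, knockout) but 14.52 and 14.52 on replicate 2 (knockout, control). Only the control of replicate 1 stood apart, and the ratio by dye was 0.40 there and 0.00 on replicate 2. The Snap25 probe opens with 10 repeats of CA. Syt1, the calcium sensor of synaptic vesicles, read 12.64 and 12.70 on replicate 1 and 12.49 and 12.52 on replicate 2, in the same order. Dcx, a microtubule protein of young neurons, read 8.14 and 8.20, then 8.25 and 8.27, in that order as well. From the highest to the lowest sample, Syt1 varied by 0.21 and Dcx by 0.13, and of the 3 Dcx probes 2 were not well above background in any sample.

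The sympathoadrenal genes showed the gap on replicate 2 more than on replicate 1. Th, tyrosine hydroxylase, the rate-limiting enzyme of catecholamine synthesis, read 10.44 in the knockout and 10.46 in the control of replicate 1. It read 11.03 in the knockout and 10.33 in the control of replicate 2. The male knockout sample alone stood high, so that the ratio by dye was 0.02 on replicate 1 and 0.71 on replicate 2. By genotype Th was 0.35 ± 0.51 (SD, n = 2 arrays; limma adjusted p = 1.00), from -0.02 and 0.71.

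Dbh, dopamine beta-hydroxylase, which makes noradrenaline, had the widest mean gap by dye of the sympathoadrenal genes. It read 11.64 and 11.95 in Cy5 (control 1, knockout 2) against 11.19 and 11.14 in Cy3 (knockout 1, control 2), and its ratio was 0.63 ± 0.25 (SD, n = 2 arrays; limma adjusted p = 0.282). Ddc, the decarboxylase that makes dopamine, read 12.14 and 12.28 against 12.00 and 11.84. Its ratios of 0.14 and 0.45 came from the brighter of its 2 probes. The dimmer Ddc probe read -0.09 and 0.13 by dye, so that the mean over both probes was 0.16 in place of 0.29. The enzymes of this pathway had unlike gaps on replicate 1, where Dbh stood at 0.45 and Th at 0.02.

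Chga and Chgb encode the secretory granule proteins chromogranin A and chromogranin B. Chgb showed the gap on both arrays and Chga mainly on replicate 2. Chga read 10.28 and 10.30 on replicate 1 (knockout, control) and 10.58 and 10.18 on replicate 2. Chgb read 12.52 and 12.75 on replicate 1 and 13.07 and 12.28 on replicate 2. The ratios by dye were 0.03 and 0.40 for Chga and 0.24 and 0.79 for Chgb, and in both genes the male knockout stood highest and the male control lowest.

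Among the transcription factors, Phox2a and Hand2 showed the gap on both arrays and Isl1 on replicate 2. Phox2a, needed for noradrenergic identity, read 11.43 and 11.61 in Cy5 and 10.98 and 11.11 in Cy3, a ratio of 0.48 ± 0.04 (SD, n = 2 arrays). Hand2, a helix-loop-helix factor of sympathetic neurons, read 9.46 and 9.68 against 9.07 and 9.09, a ratio of 0.49 ± 0.14. Both thus resembled Dbh, with the Cy5 samples apart from the Cy3 samples. Isl1, a LIM homeodomain factor of sympathetic neurons that other cells also express, read 9.77 and 9.76 on replicate 1 (knockout, control) and 10.26 and 9.54 on replicate 2. Its ratio of knockout over control was 0.01 and 0.72, a mean of 0.37 ± 0.50 with a 95% interval of 0.003 to 0.73 (limma adjusted p = 1.00). Isl1 was the highest of the 28 by genotype, with both knockout samples above both controls, but on replicate 1 they differed by only 0.01.

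Cartpt, which encodes the CART neuropeptide found in some autonomic neurons, had its wider gap on replicate 1. It read 9.50 and 9.64 in Cy5 and 8.96 and 9.30 in Cy3, with ratios of 0.53 and 0.34. It is the only sympathoadrenal gene whose gap was wider on replicate 1 than on replicate 2. Its probe and that of Ddc are shown as what was read in this class. The Cartpt probe spans 990 bases of the genome (mm9, chr13:100668967-100669956, minus strand) and so crosses an intron. The Ddc probe shown is the dimmer one, with the smaller gap (mm9, chr11:11776262-11776321, minus strand). No base is singled out.
Cartpt: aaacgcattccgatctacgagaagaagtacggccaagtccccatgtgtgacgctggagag
Ddc: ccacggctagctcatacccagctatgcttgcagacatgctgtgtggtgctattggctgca

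Sequence around the gene start was also examined, in windows of 300 bases of which 250 lie before the start. Whether the letters there bear on the gap by dye was not tested. RefSeq promoters (GRCm38.p6) were matched for 21 of the 28 genes: 9 of 15 pan-neuronal, 9 of 9 sympathoadrenal and 3 of 4 glial. The motif TGACGTCA, the palindromic cAMP response element, which reads the same on both strands, was found in 4 of their 27 promoter windows (14.8%). It was found in 588 of all 32851 windows of 300 bases (1.79%). The genes were Th, Chgb and Cartpt, all sympathoadrenal, and Foxd3, a glial gene. Its core TGACG, counted on either strand and contained in the full motif, was in 44.4% of the 27 windows and 20.8% of all. CAGCTG, an E-box, was in 29.6% and 16.3%, and TATAAA in 22.2% and 13.6%, both counted on either strand. A match is a description of these letters and was not tested as a site. In Th the motif lies from 45 to 38 bases before the start, in Chgb from 72 to 65 and in Cartpt from 112 to 105. The ratios by dye of these genes, 0.36, 0.51 and 0.43, lie within the range of the other sympathoadrenal genes, in whose windows these letters were not found.

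The 250 bases before the start of Th (GRCm38.p6, chr7:142899996-142900245, minus strand), Chgb (chr2:132781392-132781641, plus strand) and Cartpt (chr13:99900684-99900933, minus strand) are shown with TGACGTCA in capitals, in the direction of the gene.
Th: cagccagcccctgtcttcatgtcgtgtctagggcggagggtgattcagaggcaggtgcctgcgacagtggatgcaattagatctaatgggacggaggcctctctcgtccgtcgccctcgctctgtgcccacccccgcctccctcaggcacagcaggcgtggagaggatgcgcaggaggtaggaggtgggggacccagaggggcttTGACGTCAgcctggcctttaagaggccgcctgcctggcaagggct
Chgb: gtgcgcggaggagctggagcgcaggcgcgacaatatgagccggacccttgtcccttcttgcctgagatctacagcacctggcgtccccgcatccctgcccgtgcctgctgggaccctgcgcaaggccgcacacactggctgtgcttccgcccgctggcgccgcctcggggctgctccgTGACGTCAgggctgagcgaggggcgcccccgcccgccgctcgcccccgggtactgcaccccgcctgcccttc
Cartpt: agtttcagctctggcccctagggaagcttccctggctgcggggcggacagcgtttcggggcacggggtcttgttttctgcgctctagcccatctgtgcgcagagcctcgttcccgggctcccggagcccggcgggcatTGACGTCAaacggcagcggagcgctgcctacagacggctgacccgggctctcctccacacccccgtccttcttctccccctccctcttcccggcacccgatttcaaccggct

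The glial genes had the smallest gap by dye as a class, by its median, and differed among themselves in which sample stood high. Fabp7, a fatty acid binding protein of radial glia and Schwann cell precursors, read 10.63 and 10.66 on replicate 1 (knockout, control) and 11.36 and 10.61 on replicate 2. The male knockout sample alone stood high, as for Th. Sox10, the transcription factor that maintains crest-derived glia, read 9.45 and 9.86 on replicate 1 and 9.55 and 9.41 on replicate 2. There the female control stood high, so the ratios by dye were 0.41 and 0.13 for Sox10 and 0.03 and 0.75 for Fabp7. Neither gene reached an unadjusted limma p under 0.05 by dye (0.0513 and 0.0507).

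Ednrb, the endothelin receptor B of neural crest and other cells, was ordered by genotype, not by dye. It read 11.56 and 11.43 on replicate 1 (knockout, control) and 11.54 and 11.39 on replicate 2. Both knockout samples stood above both controls, by 0.13 and 0.16, a mean of 0.15 ± 0.02 (SD, n = 2 arrays) with a 95% interval of -0.12 to 0.41 (limma adjusted p = 1.00). A second probe read 0.20 and 0.16 by genotype. Foxd3, a transcription factor of early crest and its glial progenitors, read 7.69, 7.81, 7.61 and 7.60 (knockout 1, control 1, knockout 2, control 2), a range of 0.20. The second Ednrb probe is shown because both Ednrb probes had higher values in knockout on both arrays (mm9, chr14:104220870-104220929, minus strand). No base is singled out.
Ednrb: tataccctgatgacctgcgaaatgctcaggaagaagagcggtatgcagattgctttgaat

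The size of the gap went together on the arrays within the 28 genes. Across them, the ratio of Cy5 over Cy3 on replicate 1 and on replicate 2 had a Pearson r of 0.545 and a Spearman rho of 0.521. Across all 20104 genes these were -0.0168 and 0.0820. Genes share arrays and are not independent replicates, so no p is given. The GC content of the probes had a median of 41.7% for the 28 genes (35% to 53.3%) and for all genes (15% to 91.7%). Over all genes it correlated with the mean ratio by dye at a Pearson r of -0.0280. Whether base composition bears on the gap by dye was not tested. Of the 28 genes, 21 lay above the 95th percentile of the mean ratio of Cy5 over Cy3 and 8 above the 99th. Of 5 genes with more than 1 probe above background, 4 had the same direction by dye in all such probes and 4 by genotype. By the mean of both arrays, the exceptions were Ednrb by dye and Elavl4 by genotype.

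Other nerve genes were read from lists of the same kind. Of 39 other pan-neuronal genes tested out of 40 listed, 26 were brighter in Cy5 on both arrays and 1 in Cy3. Of all genes tested, 27.1% were brighter in Cy5 on both arrays and 26.5% in Cy3. The 39 genes had a median mean ratio of 0.24 by dye and -0.02 by genotype, and 0 of the 39 passed the limma test either way. At an unadjusted limma p under 0.05, 15 were brighter in Cy5, where 4.08% of all genes were. Stmn3, a stathmin, read 0.51 and 1.06 by dye on the arrays, Rtn1, a reticulon, 1.08 and 0.26, and Vgf, a granule protein, 0.20 and 0.91. Of 19 other autonomic genes tested out of 22 listed, 13 (68.4%) were brighter in Cy5 on both arrays and 0 in Cy3. Tlx2, a homeobox gene of crest-derived neurons, read 0.61 and 0.78 by dye, and Slc18a3, the vesicular acetylcholine transporter, 0.51 and 0.81. The autonomic list had medians of 0.25 by dye and 0.05 by genotype. None of its genes passed limma adjustment by dye or genotype, and 7 were brighter in Cy5 at an unadjusted p under 0.05. Slc6a2, Chrna3 and Vip did not pass the filter on dim probes.

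Of 12 other glial genes tested out of 16, 6 were brighter in Cy5 on both arrays and 0 in Cy3, with medians of 0.14 by dye and -0.06 by genotype. Pou3f1, a Schwann cell transcription factor, read 0.56 and 0.23 by dye. Mbp, a myelin protein, read 0.38 and 0.15, and Dhh, a Schwann cell ligand, 0.83 and -0.19. In each of these the ratio was larger on replicate 1. Of 18 trophic and guidance signals, 5 (27.8%) were brighter in Cy5 on both arrays, near the 27.1% of all genes, and 3 in Cy3. Their median ratio was -0.00 by dye. Ret, the GDNF receptor kinase that autonomic neurons and ureteric bud share, read 0.28 and 0.69 by dye, its ligand gene Gdnf 0.35 and 0.30, and Gfra2, a co-receptor, 0.71 and -0.11. No glial or trophic gene passed limma adjustment by dye or genotype. At an unadjusted limma p under 0.05, 1 glial and 2 trophic genes were brighter in Cy5, where 4.08% of all genes were.

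**Figure D4:**
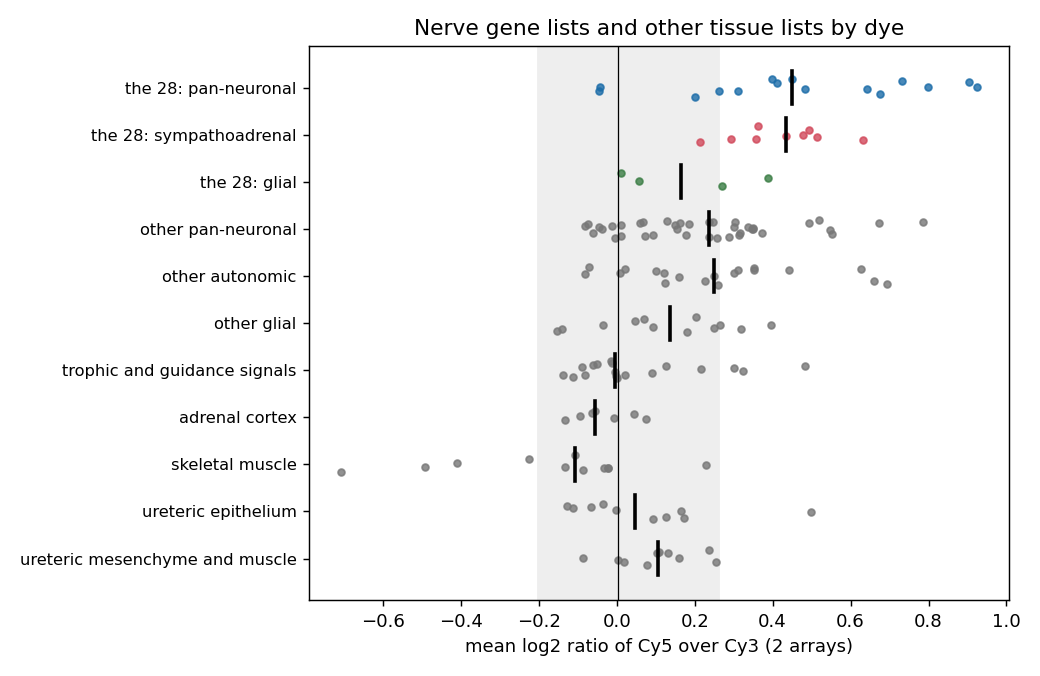
Mean log2 Cy5 over Cy3 of each tested gene (points) in each list and the list's median (bar); the shaded band spans the 5th to 95th percentile of all 20104 genes, -0.20 to 0.26. The medians of the pan-neuronal and sympathoadrenal classes lie above the band, and those of all other lists lie within it.

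Markers of neighbouring tissues were set beside the nerve genes. Of 10 listed genes of the adrenal cortex, which encloses the chromaffin cells, 7 were tested and 6 were well above background in all samples. Hsd3b1 was not, so its ratio is not given. Cyp11b1, Cyp11b2 and Mc2r did not pass the filter. The summed linear intensity of the 7 ran from 18578 to 21069 over the 4 samples, of which Fdx1, a ferredoxin that other tissues also express, made up 92.4% to 92.9%. Without Fdx1 it ran from 1366 to 1554. Of the 7, 1 was brighter in Cy5 on both arrays, against 27.1% of all genes, and the median ratio of the 7 by dye was -0.05. Cyp11a1, the first enzyme of steroid synthesis, read -0.07 and 0.22 by dye, and Akr1b7, an aldo-keto reductase, -0.06 and -0.21. Of the 28 nerve genes, the summed intensity was 89501 and 92156 in the Cy5 samples (control 1, knockout 2) and 72967 and 70927 in the Cy3 samples (knockout 1, control 2). Snap25, the brightest probe, made up 25.5% to 35.05% of these sums. Without it they were 58134 and 68670 in Cy5 and 49192 and 47449 in Cy3.

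Of 11 skeletal muscle genes tested out of 12, 7 were higher in labelled knockout on both arrays and 1 was brighter in Cy5 on both. Of all genes, 21.7% and 27.1% were. Myh8, a perinatal myosin, read -1.56 and 0.15 by dye, Myh3, an embryonic myosin, -0.99 and 0.01, and the troponin gene Tnnc2 -0.97 and 0.15. For Myh8 and Myh3 the knockout of replicate 1 stood high, and for Tnnc2 the control of replicate 1 stood low. Summed over the list, intensity ran from 15257 in the control of replicate 2 to 19408 in the knockout of replicate 1. Actc1, named like Fdx1 only for its share of the sum and after its values were seen, made up 61.1% to 75.2%, and without Actc1 the sum ran from 4511 in the control to 7556 in the knockout of replicate 1. Of the 10 genes of the ureteric epithelium, all 10 were higher in labelled knockout on both arrays and 4 passed the genotype test: Upk1a, Upk1b, Upk3a and Upk3b, uroplakins, with limma adjusted p of 0.00142, 0.00139, 0.000882 and 0.0477. Because the dyes were exchanged between the arrays, none of these 10 could then be brighter in the same dye on both. Upk2, another uroplakin, read -0.45 and 1.45 by dye. Their median by dye was 0.05, and their summed intensity ran from 183696 to 234075. Of the 10 genes of mesenchyme and muscle, 2 were brighter in Cy5 on each array, and the median by dye was 0.11. Cnn1 and Acta2, smooth muscle genes, read 0.07 and 0.43, and -0.08 and 0.41, and Myocd, their regulator, 0.68 and -0.20. The summed intensity of that list ran from 281151 to 350427. The part of tissue makeup in the gap by dye was not tested.

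Genes outside all lists also had a gap by dye. At least 1.5-fold in the same dye on both arrays were 23 genes, of which 5 are among the 28, 2 are in another nerve list and 16 are in none. The 6 widest gaps carried a transcript identifier but no gene symbol. Of those with a symbol, Rn18s, 18S ribosomal RNA, read 0.97 and 0.66, and Psme3, a proteasome activator subunit, read 0.81 and 0.69. Gm2990 read 0.82 and 0.67, Zfp791, a zinc finger gene, 0.79 and 0.61, and 9530083O12Rik 0.76 and 0.61. Fosb, an immediate early gene, was the 1 that was brighter in Cy3, at -0.81 and -0.66. These genes have no stated tie to nerve, and whether they share a source with the gap in the nerve genes was not tested.

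Some settings changed the counts by dye. Median centring of the arrays in place of loess called 14 of the 28 genes by dye at an adjusted p under 0.05, but also 1016 of all genes, of which 1011 were brighter in Cy5. Agilent's processed signals and an offset of 0 each called 2 of the 28. By genotype, 0 of the 28 passed limma adjustment under any setting tried.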

How the data were processed

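Ureter RNA of 4 samples was read on 2 two-colour arrays. Spot intensity was extracted by the authors in Agilent's Feature Extraction software, version 10.7.3.1 per the submitters' processing notes and the file headers, as mean and background signals, processed signals and a log10 ratio of Cy5 over Cy3. The authors' deposited table holds a score, a signed fold per probe, whose scaling and centring are not given in the sources used here; its signed log2 entered only as an alternative.

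Starting from mean signals, normexp (offset 50) corrected the background, arrays were normalised by loess, and outlier-marked spots (3.52% and 3.66%) and control spots were left out. The 4 spots of a probe were averaged, with a median SD of 0.0632 and 0.0701 (log2). Kept were probes for which either genotype had, on each array, 2 or more spots well above background (26522 of 39429 probes), and a gene was its brightest kept probe. Levels per sample are after Aquantile between arrays. The mean of the 2 log2 ratios, per genotype or per dye, was tested against 0 with limma 3.58.1 (R 4.3.3), two-sided, and p-values were adjusted by Benjamini-Hochberg over 20104 genes. A gene has 1 residual degree of freedom, so its variance leans on a prior (9.21 degrees for genotype, 6.57 for dye), and precision is limited by the number of arrays. The steps were tested on simulated data.

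Probe names were updated through RefSeq (GRCm38.p6, names only): 28328 probes through accessions, 3400 through current and 243 through older symbols, while 7458 stayed as named in the file. Probe coordinates (mm9) come from the array design, and exons of that build were not used here. Named are all 28 genes, up to 3 genes of each other list with the widest mean gap by dye plus those that passed a test, and 6 genes with a symbol in no list at least 1.5-fold apart by dye on both arrays. One gene that this rule names is not reported here. The 28 genes and the 8 other lists were chosen with earlier results of these data known. Each array pairs a knockout with a control sample, so the ratio is the paired value. Alternatives were other signals, background corrections, centring, filters, probe rules and priors, single arrays and unpaired channels.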

Additional observations from a re-analysis of the deposited data

Results flagged for a closer look

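Knockout over control differed in sign between the arrays for the medians of all 3 classes. This restates the class medians by dye with the sign of replicate 1 turned and is not a second result. The pan-neuronal median was -0.40 on replicate 1 and 0.59 on replicate 2. The sympathoadrenal median was -0.24 and 0.59, and the glial median -0.072 and 0.15. The difference of these medians was not tested, and replicate, sex and dye orientation cannot be told apart.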

How the results depend on the processing

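By genotype 0 of the 28 genes passed limma under any setting. Of all genes, 66 passed, and 194 did with Agilent's processed signals, 115 without background correction, 131 at an offset of 0, 191 with the authors' deposited values, 156 with a trended prior, 0 with median centring (347 at an unadjusted p under 0.05) and 0 without a filter (1097). With the channels unpaired (no replicate block) 26 passed. By dye, 0 of all genes and 0 of the 28 passed in the main setting; 14 and 2 did with processed signals, 9 and 2 at an offset of 0, and 1016 and 14 with median centring, which moved the median of all genes by dye to 0.06. With the authors' deposited values 9 of all genes passed by dye, and with unpaired channels fitted on dye and genotype (no replicate block) 10 did, of which 1 is among the 28. The filter applied by dye as well was added after seeing the data and changed none of these counts by over 1.5 times. Leaving out 1 array gave median gaps by dye from 0.40 to 0.59 (pan-neuronal; 0.59 without replicate 1), from 0.24 to 0.59 (sympathoadrenal) and from 0.072 to 0.15 (glial; 0.072 without replicate 2). By genotype the class medians turned sign between single arrays, from -0.40 to 0.59 (pan-neuronal), from -0.24 to 0.59 (sympathoadrenal) and from -0.072 to 0.15 (glial). These are the gaps by dye with the sign of replicate 1 turned. Of the 28 genes, 26 had opposite signs on the arrays. With both arrays, signs also turned for means near 0: with median centring Ina (0.013) and Elavl3 (0.0013) by genotype and Syt1 (0.036) by dye, with the authors' deposited values Elavl3 (0.027) and Syt1 (-0.022) by genotype and Ednrb (-0.011) by dye, and with the mean over probes Ednrb (-0.0030) by dye. With 2 arrays and 1 residual degree of freedom, gaps of single genes are limited by the number of arrays. The causes of these changes were not tested.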
